A study of Mus musculus with 20 samples.

Results

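Translation factor genes were taken as all genes whose mouse symbol begins with Eif1 to Eif6, Eef1 or Eef2. Names with -ps, which mark pseudogenes, were left out. This name rule found 69 of the 55487 genes in the count table, with 10 -ps names set aside. The genes encode initiation factors, elongation factors, and the kinases, methyltransferases and binding proteins that act on them. Eif2c5, an older symbol for an Argonaute-type gene, entered by its name alone.

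RNA came from mouse subcerebral projection neurons, which send axons out of the cortex towards brainstem and cord, at postnatal day 1. Their cell bodies (somata) were taken from cortex, and their growth cones (GC), the motile tips of growing axons, from brainstem and spinal cord. Each compartment was sampled from wild-type (WT) mice and from mice labelled Bcl11b KO, for null of a gene that encodes a zinc finger transcription factor of these neurons. That made 4 groups of 5 libraries. How the neurons and growth cones were marked and sorted, how many animals entered a library and which allele was used are not given in the sources used here. Nothing states that libraries of a group came from separate animals, so p-values measure only the spread between these libraries, which may be technical.

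Initiation starts when eIF2 brings the initiator tRNA to the small ribosomal subunit together with eIF1, eIF1A and eIF3. The eIF4 factors bind the mRNA cap and unwind the leader, eIF5 and eIF5B let the large subunit join, and eIF2B recharges eIF2 with GTP. During elongation eEF1A delivers aminoacyl-tRNAs, the eEF1B subunits recharge eEF1A, and eEF2 moves the ribosome by a codon. Growth cones hold ribosomes and mRNAs far from the nucleus and make some of their proteins locally in response to guidance cues.

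Libraries held 18962308 to 51205154 counted reads, and between 17433 and 20084 genes had a read. The lowest total was in a WT soma library, and all totals of the somata labelled KO, 35243688 to 51205154, were above those of the growth cones labelled KO, 21657575 to 27723067. The targeted gene, Bcl11b, was not lower in libraries labelled KO. Its level was 699.8 ± 130 CPM (a gene's count scaled to library size; SD, n = 5) in WT somata and 1150.3 ± 56.7 CPM in somata labelled KO, where it was higher in every library. The growth cone level was 101 ± 19.3 CPM in WT and 102 ± 35 CPM in the labelled KO group. Counts summed over a gene cannot tell its exons apart, and the labels' protocols do not name the deleted part. The Bcl11b soma counts go against the label, so every direction between genotypes below is one between labels. Of the 8 markers of these neurons, Crym (-2.20 ± 0.31, log2; adjusted p = 0.00600) and Pcp4 (-1.86 ± 0.23, adjusted p = 0.00367) had lower levels in the somata labelled KO, while Etv1 (1.73 ± 0.23, adjusted p = 0.00475) and Bcl11b (0.71 ± 0.12, adjusted p = 0.0153) had higher ones.

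Of the 69 genes, 3 had no count in any library (Eif4e1b, Eif4ebp3 and Eif2c5), and Eef1akmt3 stayed below the filter on low counts in every comparison. In the WT compartment comparison 65 genes could be tested and in the labelled KO comparison 64, where Eif2ak2 also fell below the filter. All members summed to 14652 ± 511 CPM in WT somata and 14151 ± 974 CPM in WT growth cones (SD, n = 5; CPM scaled by TMM, which is edgeR's factor for library composition). The sums of the groups labelled KO were 14054 ± 756 and 14586 ± 1778 CPM. The ranges of the compartments overlapped in both genotypes. Relative to library totals alone, the WT means were 13718 ± 441 CPM in somata and 15088 ± 573 CPM in growth cones, so which compartment had the higher mean turned with the scaling. In the groups labelled KO, these means were 13212 ± 382 and 15431 ± 774 CPM, without overlap.

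Growth cones and somata differed in the make-up of this set. In WT, 38 of 65 tested members passed a false discovery rate of 0.05, with 13 higher and 25 lower in growth cones (edgeR quasi-likelihood test with Benjamini-Hochberg adjustment over all genes tested, the source of every adjusted p given for a gene). Among all 15128 genes tested, 42.8% passed, 23.1% higher and 19.7% lower. In libraries labelled KO, 36 of 64 members passed, 14 higher and 22 lower, where 38.6% of 15410 genes passed, 21.6% higher and 17.0% lower. The median log2 fold change of the tested members was -0.42 in WT and -0.34 in those labelled KO, beside medians of 0.07 and 0.11 over all genes. With upper-quartile scaling, which moved the median of all genes from 0.07 to 0.28 in WT and from 0.11 to 0.31 in those labelled KO, the split was 16 higher and 20 lower in WT and 17 higher and 15 lower in those labelled KO. With that scaling 6337 of all 15128 genes passed in WT, 3990 of them higher. Under the KO label 5912 of 15410 passed, 3784 of them higher. Single libraries of the compartments did not overlap for 35 of 65 members in WT, where 37.9% of all genes did not overlap, and for 31 of 64 members in those labelled KO, where the share was 36.8%.

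The comparisons in WT and in labelled KO libraries share no library. Most experiment numbers occur under both labels, however, and compartment goes with tissue and RNA input in both. Of the 64 members tested in both, 30 passed in both, all in the same direction, with 12 higher and 18 lower. These were 78.9% of the WT calls and 83.3% of the labelled KO calls. The log2 fold change had the same sign in 59 of the 64. The same counts were not made over all genes, so this agreement is not shown to be particular to the members.

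**Figure D1:**
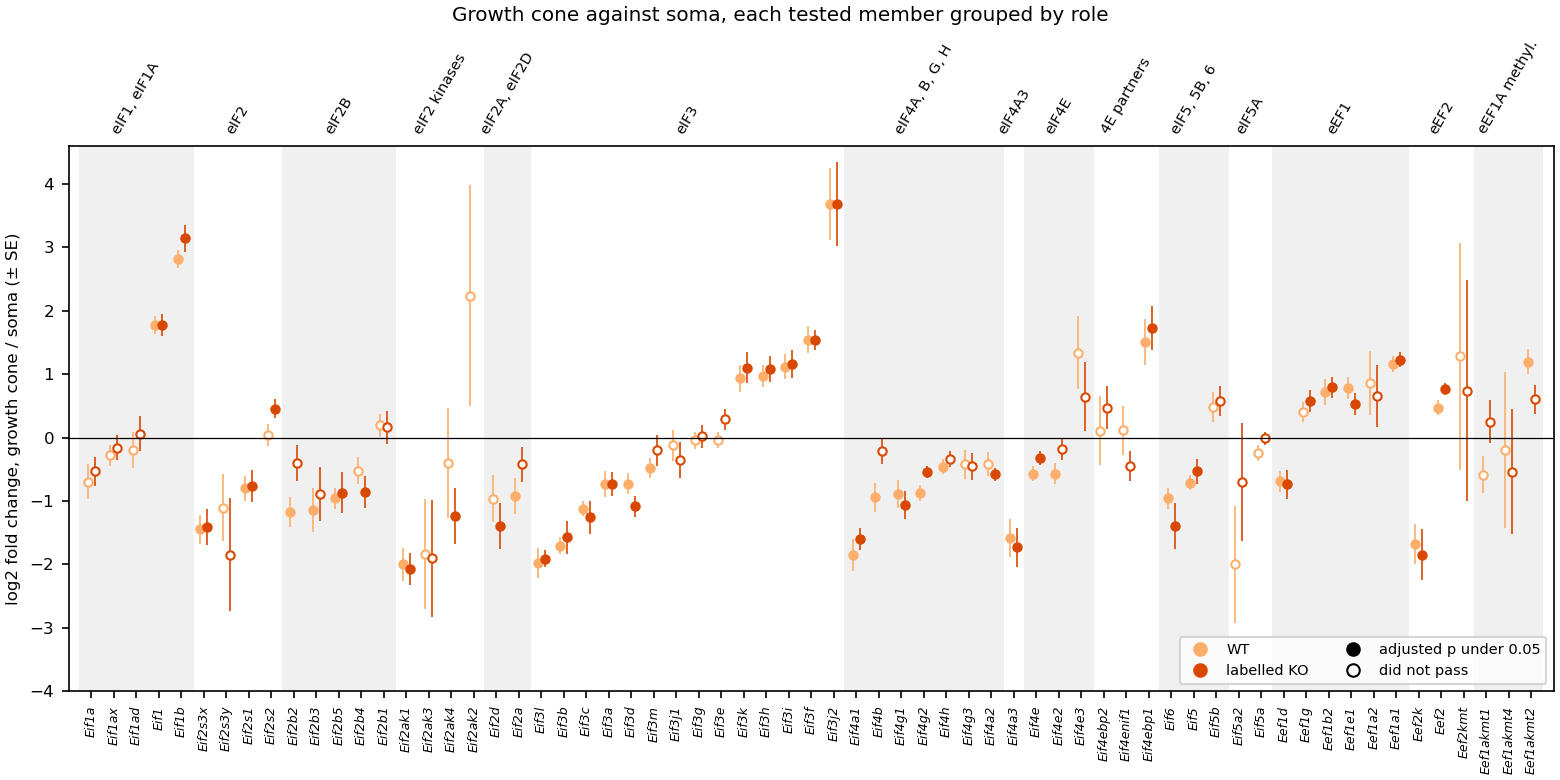
Log2 fold change of growth cone over soma (vertical axis, ± SE) for each tested member, grouped by role along the horizontal axis, in WT (light) and labelled KO (dark) libraries, with filled points for an adjusted p under 0.05. The eIF1, eIF3 and eEF1 groups hold most of the filled points above 0, the eIF2, eIF2B and eIF4A, B, G and H groups lie mostly below 0, and eIF3 spans from -1.97 to 3.68 in WT.

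Growth cone libraries also carried RNA of other cell types. The summed level of 8 astrocyte markers was 1849.8 to 2453 CPM in WT growth cones and 32.5 to 267 CPM in WT somata, and 7 of the 8 passed as higher. The 8 interneuron markers summed to 564 to 684 against 19.1 to 62.8 CPM, with 8 of 8 higher. Oligodendrocyte markers summed to 537 to 2250.4 against 57.4 to 100.3 CPM, with 6 of 8 higher. Vessel and blood markers summed to 276 to 505 against 3.23 to 18.1 CPM, with 2 of 6 tested higher. Those 2 were the hemoglobin genes Hba-a1 and Hbb-bs, and the tested vessel genes (Cldn5, Kdr, Pdgfrb and Rgs5) did not pass. Microglia markers overlapped, at 45.2 to 78.9 and 3.29 to 89.2 CPM. The 9 hindbrain and spinal cord genes, mostly Hox genes, summed to 81.1 to 176 CPM in WT growth cones, while each had 3 counts or fewer in every WT soma library. Markers of subcerebral projection neurons summed to 770.2 to 987 CPM in WT growth cones against 2058 to 2343 CPM in WT somata, with 5 of 8 lower and Pcp4 higher. Of 4 tested RNAs that are kept in the nucleus, 1 (Snhg11) passed, as higher in growth cones, in each genotype. In libraries labelled KO, 6 of 8 astrocyte, 8 of 8 interneuron and 5 of 7 tested oligodendrocyte markers were higher in growth cones. The part of these cells in the translation factor differences was not tested, and fewer cells of a type cannot be told apart from less RNA per cell. Compartment also coincided with tissue, RNA input (1.8 to 3.1 ng for somata, 0.19 to 3.1 ng for growth cones) and experiment numbers, which cannot be told apart from it.

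Both eIF1 genes of start codon scanning rose in growth cones of either genotype. Eif1b encodes a close relative of eIF1, the factor that holds the scanning ribosome open until the AUG is found. Its gene lies on chromosome 9 at 120492232 to 120495330, plus strand (GRCm38). Eif1b stood at 119.8, 100.2, 94.5, 129 and 109.6 CPM in WT somata 12, 14, 22, 25 and 26, and at 766, 886, 738, 618 and 769 CPM in WT growth cones 7 to 11. In somata labelled KO it was 88.7, 94.1, 99.8, 90.6 and 61.6 CPM (14, 15, 22, 25 and 26) and in growth cones labelled KO 1063, 638, 712, 543 and 669.8 CPM (7 to 11). Every growth cone library was higher than every soma library. The log2 fold change was 2.82 ± 0.14 (SE; adjusted p = 9.57e-08) in WT and 3.14 ± 0.21 (adjusted p = 1.13e-06) in those labelled KO.

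Eif1, the main eIF1 gene, was also higher in growth cones. Its level was 494, 352, 377, 399 and 420.1 CPM in WT somata and 1433, 1382, 1261, 1057 and 1628 CPM in WT growth cones. In somata labelled KO it was 375, 463, 401, 378 and 449 CPM, and in growth cones labelled KO 1646, 1074, 1502, 916 and 1569 CPM. The compartments did not overlap, and the log2 fold changes were 1.77 ± 0.15 (adjusted p = 2.78e-06) in WT and 1.78 ± 0.18 (adjusted p = 1.54e-05) in those labelled KO. About 19.2% of the 50-base stretches of Eif1 transcripts occur in other genes, so part of its counts is uncertain, while for Eif1b the share was 4.2%, with 12.7% of its exon bases overlapping a gene on the opposite strand. The other 3 genes of this role did not pass in either genotype. Eif1a and Eif1ax encode copies of eIF1A, which stabilises scanning. The WT log2 fold changes of this pair were -0.70 ± 0.27 (adjusted p = 0.0586) and -0.28 ± 0.17 (adjusted p = 0.198), and that of Eif1ad, a gene with an eIF1A-like domain, was -0.20 ± 0.28 (adjusted p = 0.606).

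**Figure D2:**
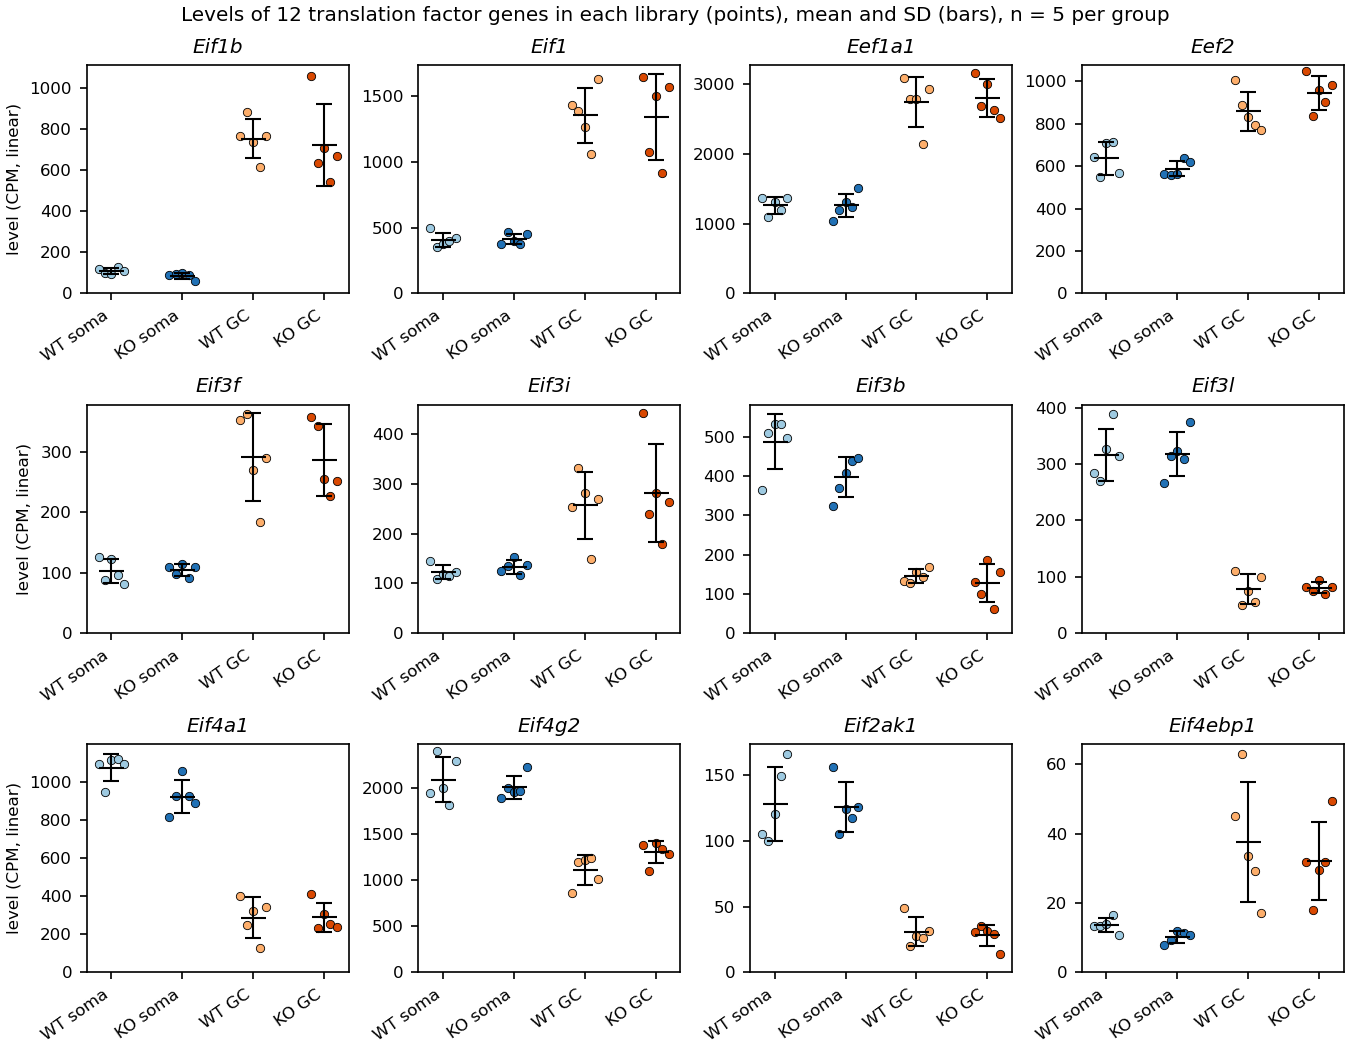
Level in CPM (linear axis from 0) of 12 members in each library (points) of the 4 groups, with the mean and SD (bars; n = 5). Eif1b and Eif1 lie several times higher in growth cones, Eef1a1, Eef2, Eif3f and Eif3i are also higher there, and Eif3b, Eif3l, Eif4a1, Eif4g2 and Eif2ak1 are lower, each in both genotypes. Eif4ebp1 is low in somata, 13.6 ± 1.99 CPM in WT, and 37.7 ± 17.3 CPM in WT growth cones.

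Several genes of the elongation machinery rose in growth cones. Of the 6 eEF1 genes, 3 were higher in WT (Eef1a1, Eef1b2 and Eef1e1) and 4 in those labelled KO (the same 3 and Eef1g), while Eef1d was lower in both. Among all genes tested, 23.1% were higher in WT and 21.6% in those labelled KO. Eef1a1 encodes the eEF1A form used in most cells and lies on chromosome 9 at 78478449 to 78489151, minus strand. Its level was 1363, 1089, 1304, 1191 and 1368 CPM in WT somata and 3080.1, 2776, 2781, 2142 and 2923 CPM in WT growth cones. In somata labelled KO it was 1042, 1198, 1307, 1241 and 1507 CPM and in growth cones labelled KO 3159.5, 2679, 2998, 2624 and 2507 CPM. The groups did not overlap, even with WT growth cone 10, the lowest of its group. The log2 fold changes were 1.16 ± 0.12 (adjusted p = 1.91e-05) and 1.23 ± 0.12 (adjusted p = 1.54e-05). Sequence shared with copies of this gene covers 40.4% of its 50-base stretches, so its counts are uncertain.

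The eEF1B subunits, which exchange GDP for GTP on eEF1A, did not move as a unit. Eef1b2 rose by 0.72 ± 0.20 (log2; adjusted p = 0.0125) in WT and 0.79 ± 0.17 (adjusted p = 0.00321) in those labelled KO. Eef1g, whose protein anchors the complex, gave 0.40 ± 0.16 in WT (adjusted p = 0.0561) and rose by 0.58 ± 0.17 in those labelled KO (adjusted p = 0.0197), a call lost without soma 14, 15 or 25 labelled KO and with 44.2% of its 50-base stretches shared. Eef1d, the other exchange subunit, had a log2 fold change of -0.69 ± 0.17 (adjusted p = 0.00579) in WT and -0.74 ± 0.23 (adjusted p = 0.0256) in those labelled KO. Its WT levels were 199.8, 174, 208, 206 and 176 CPM in somata and 92.2, 152, 96.2, 102 and 138 CPM in growth cones, with every growth cone library below every soma library. The labelled KO call was lost without soma 25 or growth cone 8. Eef1e1, a scaffold protein of the multi-synthetase complex, rose by 0.78 ± 0.17 in WT (adjusted p = 0.00304) and by 0.53 ± 0.18 in those labelled KO (adjusted p = 0.0321), the latter lost when any of 8 of the 10 libraries was left out. Eef1a2, the form of mature neurons and muscle, was at 5.74 ± 1.97 CPM in WT somata and 10.1 ± 1.5 CPM in WT growth cones (adjusted p = 0.187).

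Eef2 and the kinase that silences its product went in opposite directions. Eef2 encodes the translocase of the elongating ribosome (chromosome 10, 81176631 to 81182498, plus strand). It stood at 645, 549, 709, 715 and 569 CPM in WT somata and 1004, 889, 830.2, 796 and 773 CPM in WT growth cones. In somata labelled KO it was 566, 558, 563, 638 and 619 CPM and in growth cones labelled KO 1051, 838, 958, 904 and 982 CPM. Growth cones were higher without overlap, with log2 fold changes of 0.47 ± 0.12 (adjusted p = 0.00889) and 0.76 ± 0.10 (adjusted p = 1.20e-04). Eef2k encodes the calcium/calmodulin-dependent kinase that phosphorylates eEF2 and slows elongation. Its level was 64.5, 83.5, 84.7, 99.1 and 127 CPM in WT somata and 11.1, 37.1, 29.4, 26.9 and 34.8 CPM in WT growth cones. In libraries labelled KO it was 95.0, 123, 92.9, 110.1 and 76.7 CPM in somata and 10.5, 11.3, 45.1, 38.2 and 26.5 CPM in growth cones. All growth cone values were below all soma values, by log2 fold changes of -1.67 ± 0.31 (adjusted p = 0.00111) and -1.84 ± 0.40 (adjusted p = 0.00346).

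Among methyltransferases of these factors, Eef1akmt2 was higher in WT growth cones, 97.4 ± 19.4 against 43.9 ± 5.19 CPM in WT cell bodies (log2 fold change 1.19 ± 0.20, adjusted p = 4.15e-04). In those labelled KO its log2 fold change was 0.60 ± 0.23 (adjusted p = 0.0542). Eef1akmt1 did not pass in either genotype (-0.59 and 0.25), and Eef1akmt4 and Eef2kmt had means under 3 CPM in every group. With the gene length trend removed (described below), Eef1akmt1 passed as lower, at -1.83 (adjusted p = 2.66e-04) and -1.03 (adjusted p = 0.0213).

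The subunits of eIF3, the scaffold that links the small ribosomal subunit to the mRNA and the other factors, split into a higher and a lower set. Of 14 genes, 5 were higher and 6 lower in WT, and 5 higher and 5 lower in those labelled KO. Among all genes tested, 23.1% were higher and 19.7% lower in WT, and 21.6% and 17.0% in those labelled KO. With the gene length trend removed (described below), the calls of Eif3h and Eif3a ended in both genotypes and that of Eif3d in WT. Eif3e then passed as higher and Eif3g as lower in both. The sum over the 14 genes, relative to library totals, was 2326 ± 53.5 CPM in somata of WT mice and 2188 ± 175 CPM in their growth cones (SD, n = 5).

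The higher set was Eif3f, Eif3h, Eif3i, Eif3k and Eif3j2 in both genotypes. Eif3f and Eif3h encode the pair of subunits with an MPN domain. Eif3f (chromosome 7, 108934417 to 108942951, plus strand) stood at 126, 88.0, 122, 96.6 and 81.7 CPM in WT somata and 352, 362, 269.9, 183 and 289 CPM in WT growth cones. Somata labelled KO had 109, 97.1, 114, 91.3 and 109 CPM, and growth cones labelled KO 358, 342, 255, 226 and 251 CPM. No library of one compartment reached the other, and the log2 fold changes were 1.54 ± 0.21 (adjusted p = 1.09e-04) and 1.54 ± 0.16 (adjusted p = 2.32e-05). Eif3h rose by 0.97 ± 0.18 and 1.08 ± 0.20, Eif3i, a WD-repeat subunit, by 1.12 ± 0.20 and 1.16 ± 0.22, and Eif3k, a small subunit of the core, by 0.94 ± 0.21 and 1.10 ± 0.24. Single libraries overlapped for Eif3k, and Eif3h shares 20.3% of its 50-base stretches with other genes. The Eif3i levels were 145, 108, 119, 115 and 124 CPM in WT somata and 253, 332, 282, 149 and 270.2 CPM in WT growth cones, again without overlap. Eif3j2 was at 1.31 ± 0.392 CPM in WT somata and 16.4 ± 7.86 CPM in WT growth cones, and in those labelled KO it was at 1.44 ± 0.309 and 17.5 ± 8.88 CPM. Its counts are uncertain, because 91.9% of its 50-base stretches occur in other genes, mainly in Eif3j1, which did not pass (log2 fold changes -0.12 ± 0.25 and -0.35 ± 0.28).

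The lower set held Eif3a, Eif3b, Eif3c, Eif3d and Eif3l in both genotypes, and Eif3m in WT. Eif3b, a scaffold subunit at the solvent side of the ribosome, lies on chromosome 5 at 140419328 to 140443360, plus strand. Its level was 364, 509.7, 532, 532 and 496 CPM in WT somata and 131, 127, 156, 142 and 169 CPM in WT growth cones. The soma libraries labelled KO had 323, 370.1, 408, 438 and 447 CPM and growth cones labelled KO 129.8, 99.5, 186, 61.7 and 154 CPM. The growth cone libraries lay below all somata, with log2 fold changes of -1.70 ± 0.14 (adjusted p = 2.91e-06) and -1.57 ± 0.26 (adjusted p = 5.76e-04). Eif3l, a core subunit on chromosome 15 (79075179 to 79094405, plus strand), showed the largest fall of the complex. It stood at 284, 269.5, 327, 388 and 315 CPM in WT somata and 111, 49.9, 75, 54.4 and 100 CPM in WT growth cones. The values labelled KO were 266, 315, 323, 309 and 375 CPM in somata and 81.3, 73.8, 94.8, 69.4 and 81.0 CPM in growth cones. These groups did not overlap either, and the log2 fold changes were -1.97 ± 0.24 (adjusted p = 4.42e-05) and -1.91 ± 0.14 (adjusted p = 2.09e-06). Eif3c had log2 fold changes of -1.12 ± 0.12 and -1.26 ± 0.27, and Eif3a of -0.73 ± 0.21 and -0.73 ± 0.18. Eif3d, the subunit that can itself bind a cap, gave -0.73 ± 0.17 and -1.08 ± 0.17, but 43.3% of its exon bases overlap a gene on the opposite strand and its counts are uncertain. Eif3m gave -0.48 ± 0.16 in WT (adjusted p = 0.0266), a call that 6 of the 10 left-out libraries ended, and -0.20 ± 0.24 in those labelled KO (adjusted p = 0.561). Eif3e and Eif3g did not pass in the main test, with WT log2 fold changes of -0.04 ± 0.13 and -0.04 ± 0.13.

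No gene of the eIF4F helicase and scaffold group was higher in growth cones. Of its 7 genes, 5 were lower in WT (Eif4a1, Eif4b, Eif4h, Eif4g1 and Eif4g2) and 4 in those labelled KO (Eif4a1, Eif4a2, Eif4g1 and Eif4g2). Among all genes tested, 19.7% were lower in WT and 17.0% in those labelled KO. With the gene length trend removed (described below), Eif4a1 stayed lower in both genotypes and Eif4g2 in WT. The other calls of this group ended there. The sum over the 7 genes relative to library totals was 3999 ± 225 CPM in somata of WT mice and 2272 ± 250.2 CPM in their growth cones. Eif4a1 encodes the main RNA helicase that unwinds mRNA leaders (chromosome 11, 69666936 to 69672423, minus strand). It stood at 1095, 948, 1115, 1118 and 1095 CPM in WT somata and 399.5, 250.2, 321, 127 and 343 CPM in WT growth cones. Somata labelled KO gave 815, 924, 1053, 927 and 889 CPM and growth cones labelled KO 409, 234, 308, 254 and 236 CPM. The highest growth cone library was under the lowest soma library in both genotypes. The log2 fold changes were -1.85 ± 0.25 (adjusted p = 1.10e-04) and -1.60 ± 0.17 (adjusted p = 2.44e-05), with 28.4% of its 50-base stretches shared with other genes.

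Eif4g2 encodes a scaffold that lacks the part of eIF4G that binds eIF4E, and was one of the most abundant members. Its levels were 1940.2, 2393, 1998, 1813 and 2294 CPM in WT somata and 861, 1197, 1221, 1235 and 1014 CPM in WT growth cones. In libraries labelled KO they were 1893, 2001, 1951, 1959 and 2219 CPM in somata and 1384, 1102, 1399.9, 1335 and 1285 CPM in growth cones. The compartments did not overlap, with log2 fold changes of -0.87 ± 0.13 (adjusted p = 1.80e-04) and -0.55 ± 0.10 (adjusted p = 0.00113). Eif4g1, the main scaffold, gave -0.89 ± 0.22 and -1.06 ± 0.22. Eif4g3 did not pass (-0.42 and -0.46). The helicase cofactor Eif4b gave -0.94 ± 0.23 in WT (adjusted p = 0.00519) and -0.21 ± 0.20 in those labelled KO (adjusted p = 0.450), and Eif4h, its relative, -0.46 ± 0.12 (adjusted p = 0.00783) and -0.34 ± 0.13 (adjusted p = 0.0600). Eif4a2, the helicase paralog abundant in brain, gave -0.41 ± 0.19 (adjusted p = 0.104) and -0.58 ± 0.11 (adjusted p = 0.00124). Eif4a3, the helicase of the exon junction complex rather than of initiation, was lower in both genotypes. It went from 186 ± 14.7 to 60.1 ± 30.4 CPM in WT and from 192 ± 26 to 55.0 ± 24.9 CPM in those labelled KO, with log2 fold changes of -1.58 ± 0.30 (adjusted p = 0.00107) and -1.73 ± 0.31 (adjusted p = 9.01e-04).

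The genes of the cap-binding protein and its inhibitor also differed in direction in the main test. Eif4e was 351, 319, 364, 363 and 365 CPM in WT somata and 261, 217, 251, 213 and 209 CPM in WT growth cones, all growth cones below all somata (log2 fold change -0.57 ± 0.11, adjusted p = 0.00177). In those labelled KO the change was -0.32 ± 0.11 (adjusted p = 0.0373), with overlap, and 7 of the 10 left-out libraries ended that call. With the gene length trend removed (described below), Eif4e passed in neither genotype, at -0.01 (adjusted p = 0.968) and 0.24 (adjusted p = 0.0841). Eif4ebp1 encodes 4E-BP1, which blocks eIF4E until mTORC1 phosphorylates it. Its levels were 13.3, 13.3, 14, 16.5 and 10.9 CPM in WT somata and 45.0, 63.0, 33.7, 29.4 and 17.3 CPM in WT growth cones. Somata labelled KO had 7.84, 9.39, 12.1, 11.4 and 10.8 CPM, and growth cones labelled KO 31.8, 18.1, 29.6, 31.9 and 49.5 CPM. Every growth cone was above every soma, although WT growth cones spanned from 17.3 to 63.0 CPM. The log2 fold changes were 1.51 ± 0.36 (adjusted p = 0.00519) and 1.72 ± 0.35 (adjusted p = 0.00213). Eif4ebp1 stayed higher with the length trend removed (1.13 and 1.34). Its neuronal relative Eif4ebp2 did not pass (0.11 ± 0.54 and 0.47 ± 0.34), nor did the eIF4E transporter Eif4enif1 (0.12 ± 0.39 and -0.45 ± 0.24). The cap-binding homolog Eif4e2 was lower in WT (-0.57 ± 0.17, adjusted p = 0.0160, lost without WT soma 25) and gave -0.19 ± 0.17 in those labelled KO (adjusted p = 0.410).

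The eIF2 cycle and its control held few genes that were higher in growth cones. Of the 4 eIF2 subunit genes, Eif2s1 (alpha) and Eif2s3x (gamma) were lower in both genotypes. Eif2s3x stood at 72.9, 67.2, 78.3, 62.4 and 53.1 CPM in WT somata and 19.6, 20.7, 31.9, 24.8 and 21.7 CPM in WT growth cones, without overlap (log2 fold change -1.45 ± 0.23, adjusted p = 3.01e-04). In those labelled KO its change was -1.41 ± 0.28 (adjusted p = 0.00216). Copies elsewhere share 34.6% of its 50-base stretches. Eif2s1 gave -0.80 ± 0.20 and -0.77 ± 0.25, the latter (adjusted p = 0.0311) lost without soma 22, soma 25 or growth cone 10 labelled KO. Eif2s2 (beta) had a log2 fold change of 0.04 ± 0.17 in WT (adjusted p = 0.875). In those labelled KO it was higher by 0.46 ± 0.15 (adjusted p = 0.0291), and leaving out any of 8 libraries ended the call. Eif2s3y, the gamma gene of the Y chromosome, did not pass (-1.10 ± 0.52 and -1.85 ± 0.89). Its ratio to Eif2s3x per length varied widely between libraries of a group. It spanned 0.132 to 0.529 in WT somata and 0.225 to 0.803 in WT growth cones. With the KO label the ratio spanned 0.0670 to 0.895 in somata and 0.0277 to 1.13 in growth cones. The part of the animals' sex in the levels of either gene was not tested.

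Of the 5 subunits of eIF2B, the exchange factor of eIF2, 3 were lower in WT (Eif2b2, Eif2b3 and Eif2b5, where Eif2b3 did not pass without WT soma 12) and 2 in those labelled KO (Eif2b4 and Eif2b5). Among all genes tested, 19.7% were lower in WT and 17.0% in those labelled KO. Eif2b5, the catalytic subunit, was at 151, 160.3, 194, 186 and 179 CPM in WT somata and 104, 74.0, 81.2, 104 and 71.2 CPM in WT growth cones, without overlap (log2 fold change -0.96 ± 0.16, adjusted p = 4.93e-04). Under the KO label its change was -0.87 ± 0.32 (adjusted p = 0.0497), and leaving out any of 8 libraries ended the call. The WT changes of Eif2b2 and Eif2b3, the beta and gamma subunits, were -1.18 ± 0.24 (adjusted p = 0.00167) and -1.15 ± 0.35 (adjusted p = 0.0197). Eif2b4, the delta subunit, gave -0.52 ± 0.21 (adjusted p = 0.0642) in WT and -0.86 ± 0.25 (adjusted p = 0.0182) in those labelled KO. Eif2b1, the regulatory alpha subunit, had WT and labelled KO changes of 0.20 ± 0.18 and 0.16 ± 0.26 and did not pass.

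Eif2ak1 encodes HRI, a kinase that phosphorylates eIF2 under heme shortage and mitochondrial stress. It stood at 105, 100, 119.8, 149 and 165 CPM in WT somata and 48.7, 20.2, 27.9, 26.2 and 31.6 CPM in WT growth cones. Somata labelled KO stood at 156, 105, 124, 117 and 126 CPM and growth cones labelled KO 30.8, 35.4, 31.5, 29.1 and 14 CPM. Growth cones were lower without overlap, by log2 fold changes of -2.0 ± 0.26 (adjusted p = 8.49e-05) and -2.08 ± 0.25 (adjusted p = 6.60e-05). Eif2ak3 (PERK, the endoplasmic reticulum kinase) gave -1.83 ± 0.87 and -1.90 ± 0.92 and did not pass, with WT growth cones between 0.546 and 17.4 CPM. Eif2ak4 (GCN2, the amino acid sensor) gave -0.40 ± 0.86 in WT and -1.23 ± 0.44 in those labelled KO (adjusted p = 0.0442, lost when any of 6 libraries was left out). Eif2ak2 (PKR, the kinase activated by double-stranded RNA) stayed under 3 CPM in all libraries other than WT growth cones 7 and 10 and reached 10.6 CPM in WT growth cone 7.

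Eif2a and Eif2d encode factors that can deliver initiator tRNA without eIF2. Eif2a was at 62.2 ± 7.92 CPM in WT somata and 31.9 ± 12.5 CPM in WT growth cones (-0.92 ± 0.28, adjusted p = 0.0198), a call lost without WT soma 12 or 25, and gave -0.42 ± 0.27 in those labelled KO (adjusted p = 0.251). Eif2d gave -0.96 ± 0.38 in WT (adjusted p = 0.0562) and was lower by -1.39 ± 0.36 in those labelled KO (adjusted p = 0.00971).

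In the main edgeR test, the factors that act at or after subunit joining were lower or did not pass. Eif6, which keeps the ribosomal subunits apart, went from 179 ± 23.1 to 89.4 ± 15.6 CPM in WT (log2 fold change -0.96 ± 0.16, adjusted p = 5.77e-04) and from 204 ± 21.9 to 73.5 ± 42.4 CPM in those labelled KO (-1.39 ± 0.36, adjusted p = 0.0101). Eif5, the GTPase-activating protein of eIF2, gave -0.71 ± 0.12 (adjusted p = 5.56e-04) and -0.53 ± 0.19 (adjusted p = 0.0474). The latter was lost without any of 9 of the 10 libraries. Eif5b did not pass in that test (0.49 and 0.58). It did pass, as higher in both genotypes, with DESeq2, upper-quartile scaling, library totals alone and the gene length trend removed (described below). Eif5a, the hypusine-modified factor that helps the ribosome through stalling sequences, was at 1574, 1044, 1253, 1198 and 1116 CPM in WT somata and 1025, 1070.3, 1008, 914 and 1035 CPM in WT growth cones, which overlapped. Its log2 fold changes were -0.25 ± 0.13 (adjusted p = 0.134) and -0.01 ± 0.10 (adjusted p = 0.951). Its paralog Eif5a2 did not pass (-2.0 ± 0.92 and -0.70 ± 0.93), with wide spread in growth cones.

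These changes altered the order of the members by abundance per length (RPKM, CPM per kilobase of exon). Eif5a (520.4 ± 86.1 RPKM, SD, n = 5), Eef1a1 (507 ± 48.4) and Eif4a1 (248 ± 16.4) led in WT somata, and the first pair did not differ beyond their spread. In WT growth cones the order was Eef1a1 (1099 ± 143), Eif1b (672 ± 84.9), Eif1 (645 ± 101) and Eif5a (425 ± 24.6), where Eif1b and Eif1 did not differ beyond their spread. Eif1b rose from rank 9 in WT somata to rank 2 in WT growth cones, and Eif4a1 went from rank 3 to rank 14. The same ranks of 2 and 14 were reached in growth cones labelled KO, from ranks 16 and 3 in somata.

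Ratios of paired genes within a library depend little on the scaling between libraries, but a trend with gene length, described after them, acts within a library and can move them. Of 13 pairs in the 4 pairwise comparisons (52 tests), 10 passed, all between compartments, each at an exact permutation p of 0.00794 (two-sided; the smallest that 5 against 5 libraries allow; adjusted 0.0413). These ratios used CPM per kilobase after adding 0.5 CPM. Eif1b over Eif1 was 0.453, 0.533, 0.469, 0.604 and 0.488 in WT somata and 0.998, 1.20, 1.09, 1.09 and 0.881 in WT growth cones. With the KO label it was 0.443, 0.380, 0.466, 0.449 and 0.258 in somata and 1.20, 1.11, 0.884, 1.11 and 0.796 in growth cones. All growth cone ratios were higher, by 1.04 and 1.37 on the log2 scale. The gap between the genes narrowed with the length trend removed, where Eif1b rose by 1.71 and Eif1 by 1.33 in WT, and by 2.0 and 1.32 in those labelled KO. No ratio was tested with the trend removed. Eif4a2 over Eif4a1 was 0.194 ± 0.0302 (SD, n = 5) in WT somata and 0.642 ± 0.434 in WT growth cones, where growth cone 10 stood highest at 1.38 and growth cone 7 lowest at 0.238. The log2 differences were 1.51 in WT and 1.05 in those labelled KO. Eef2k over Eef2 fell from 0.0660 ± 0.0210 to 0.0152 ± 0.00600 in WT, a log2 difference of -2.21, with -2.80 in those labelled KO. Eif3j2 over Eif3j1 differed by 3.29 and 3.38, with the uncertainty of their shared sequence. With any 1 library left out, 0 of the 52 tests passed after adjustment, since 4 against 5 libraries cannot go below 0.0159 and fewer tests then reach the smallest p.

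A further 2 ratios passed in those labelled KO. Eif4ebp2 over Eif4ebp1 differed by -1.27 on the log2 scale and Eif4e3 over Eif4e by 0.93. In WT the same ratios differed by -1.42 (exact permutation p = 0.0397, adjusted 0.129) and 1.57 (exact permutation p = 0.0159, adjusted 0.0635). With the length trend removed, the 2 genes of each pair changed by closer amounts under the KO label, Eif4ebp2 by 1.06 and Eif4ebp1 by 1.34, and Eif4e3 by 0.47 and Eif4e by 0.24, on the log2 scale. The genotypes' ratio differences were not tested against each other. Eef1a2 over Eef1a1 did not pass in either genotype, at -0.28 (exact permutation p = 0.294) and -0.63 (exact permutation p = 0.0159, adjusted 0.0635).

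**Figure D3:**
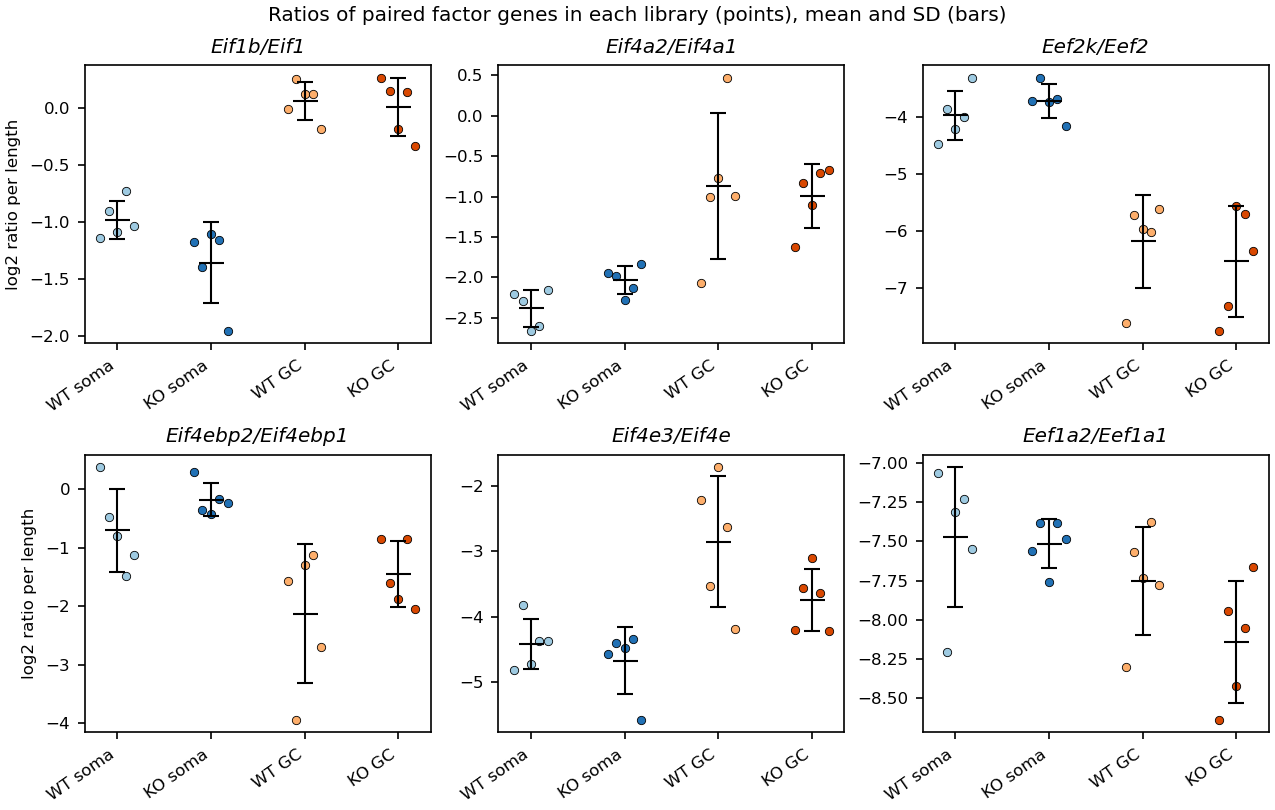
Log2 ratio per length of 6 gene pairs (vertical axis) in each library (points) of the 4 groups, with the mean and SD (bars; n = 5). Eif1b over Eif1 and Eif4a2 over Eif4a1 are higher and Eef2k over Eef2 is lower in every growth cone library of both genotypes, while Eef1a2 over Eef1a1 overlaps between compartments.

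Gene length moved with the compartment difference. Among all genes tested in WT, the shortest genes (under 2798 exon bases, a limit that divides the genes into 3 bins of equal size) had a median log2 fold change of 1.11, with 40.1% higher and 8.11% lower in growth cones, and the longest (over 5528) had -0.37, with 12% higher and 26.5% lower. Of the members, 9 were higher and 5 lower among 25 short genes, 4 higher and 8 lower among 18 of middle length, and 0 higher and 12 lower among 22 long genes. Under the KO label the members' counts were 9 and 4 of 24, 4 and 8 of 18, and 1 and 10 of 22. All genes under that label gave 39.1% higher and 6.09% lower (short), 15.4% and 20.9% (middle), and 10.3% and 24.0% (long). The middle bin of all WT genes had 17.2% higher and 24.5% lower. Higher calls among short members, 36% in WT and 37.5% under the KO label, lay near the share over all short genes. Across members, length and log2 fold change had a Spearman rho of -0.38 in WT (n = 65) and -0.44 in those labelled KO (n = 64). This is a description across genes of the same libraries.

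A fit that removed each library's trend with gene length was an alternative chosen after seeing the data. It put 32 members past the threshold in WT (15 higher, 17 lower) and 31 in those labelled KO (15 higher, 16 lower), new calls included. Of all genes, 5609 of 15128 passed there in WT, 3236 of them higher. Under the KO label 5129 of 15410 genes passed, 3018 of them higher. The fit ended 13 of the 38 WT calls and 12 of the 36 labelled KO calls, and it added others. In both genotypes it added Eif5b and Eif3e as higher and Eif5a, Eif3g and Eef1akmt1 as lower. It also added Eif2s2 (higher) and Eif2b4 (lower) in WT, and Eif4ebp2 (higher) and Eif2b2 (lower) under the KO label. In that fit Eif1b was higher by 1.71 (adjusted p = 1.20e-06) in WT and 2.0 (adjusted p = 3.25e-06) in those labelled KO, less than without it. Eif1 rose by 1.33 and 1.32, less than Eif3f there. Eef1a1 (0.99 and 1.04), Eef2 (0.70 and 0.95), Eif3f (1.58 and 1.55) and Eif3i (1.47 and 1.48) also passed there in both genotypes. So did the lower genes Eif3b (-1.47 and -1.37), Eif3l (-1.65 and -1.61), Eif4a1 (-1.39 and -1.14), Eif2ak1 (-1.42 and -1.51) and Eef2k (-1.11 and -1.30). Calls that it ended in both genotypes included Eif3h (0.22, adjusted p = 0.242 in WT), Eif3a (-0.17, adjusted p = 0.558), Eef1d (-0.14, adjusted p = 0.589), Eif4g1 (-0.35, adjusted p = 0.202) and Eif2s1 (-0.27, adjusted p = 0.322). Eif4g2 was lower in WT (-0.36, adjusted p = 0.0105) but not in those labelled KO (0.03, adjusted p = 0.906), and the WT call of Eif4e ended (-0.01, adjusted p = 0.968). The other WT calls it ended were those of Eif5 (-0.16, adjusted p = 0.203), Eif4b (-0.46, adjusted p = 0.149), Eif3d (-0.21, adjusted p = 0.320), Eif2a, Eif2b3, Eif4e2 and Eif4h. Under the KO label it also ended those of Eif2d (-0.79, adjusted p = 0.129), Eif4a2 (-0.03, adjusted p = 0.877), Eif4e, Eif5, Eef1g and Eif2ak4.

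**Figure D4:**
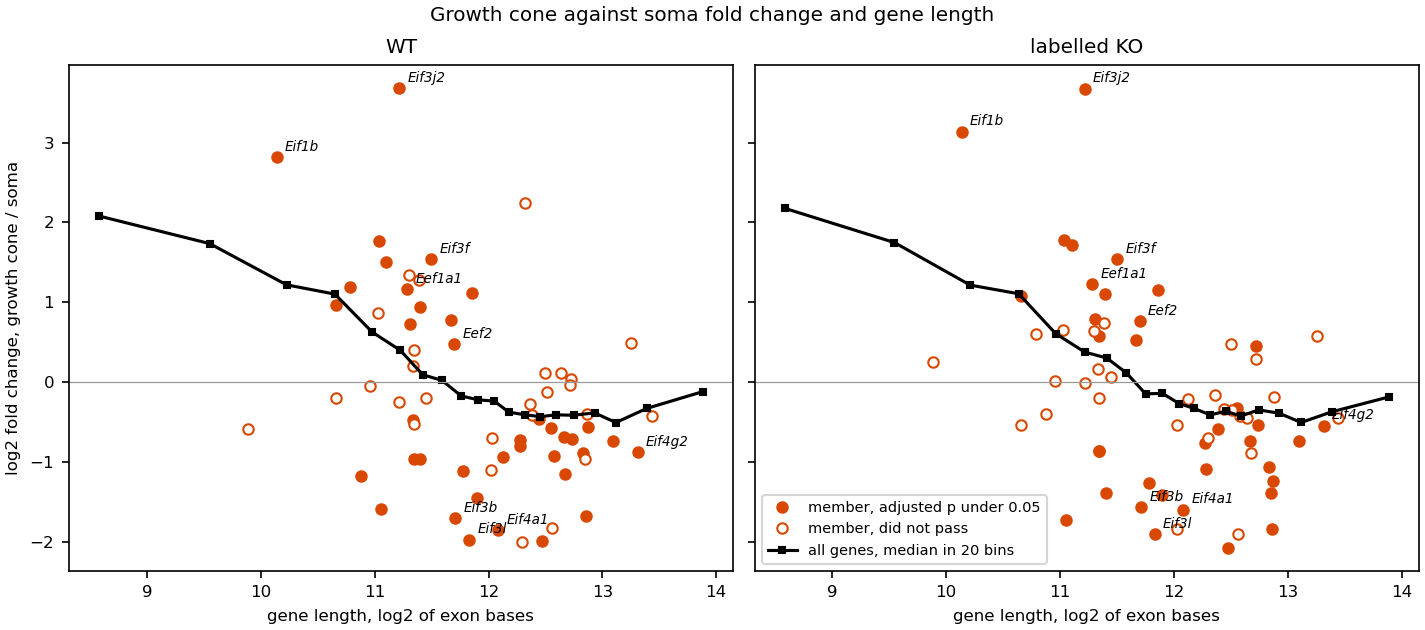
Log2 fold change of growth cone over soma (vertical axis) against gene length (horizontal axis, log2 of exon bases) for the tested members (circles, filled for an adjusted p under 0.05), with the median of all genes in 20 length bins (line and squares), in WT (left) and labelled KO (right) libraries. Short genes have higher medians than long genes, Eif1b lies above the line, and Eif3b, Eif3l and Eif4a1 lie below it.

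Several elongation factor and eIF3 mRNAs are known as TOP mRNAs, which begin with a C followed by a run of pyrimidines and whose translation is regulated by mTORC1. Of 10 factors listed as TOP mRNAs, 5 were higher in WT growth cones (Eef1a1, Eef1b2, Eef2, Eif3f and Eif3h) and 2 lower (Eef1d and Eif4b). With the KO label 6 were higher, with Eef1g added, and Eef1d was lower. Of all genes tested, 23.1% were higher and 19.7% lower in WT, and 21.6% and 17.0% with the KO label. The length offset ended the calls of Eif3h and Eef1d in both genotypes, of Eif4b in WT and of Eef1g under the KO label. With it Eif3e passed as higher in both. The 30 bases around the annotated RefSeq start (15 before and 15 from the start, GRCm38.p6) are shown for the listed genes with an entry and for Eif2s3x, to set what these starts hold beside the changes. Capitals mark a C at the start followed by at least 4 C or T bases, read on the transcript strand.
Eif3f: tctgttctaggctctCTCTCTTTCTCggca
Eef1a1: gctggctccgccctcttcccgagggtgggg
Eef1b2: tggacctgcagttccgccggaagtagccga
Eef2: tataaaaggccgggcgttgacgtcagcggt
Eif4b: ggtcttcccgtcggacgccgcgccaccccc
Eef1a2: tctctcctggtctgcgttctcgctcactgg
Eif2s3x: ctgccgagcattttcCTTTTCTCTCCgagc
These windows lie at chr7:108934400-108934429 (plus strand), chr9:78481710-78481739 (minus), chr1:63176816-63176845 (plus), chr10:81176616-81176645 (plus), chr15:102073758-102073787 (plus), chr2:181157001-181157030 (minus) and chrX:94212637-94212666 (minus), in the order shown. RefSeq starts were matched for 53 members. A tract exactly at an annotated start was found in 3 of them (Eif3f, Eif2s3x and Eif2c5), or 5.66%, and in 3.01% of 27025 genes. Within 5 bases of a start on either side, such a tract began in 15 of the 53 members (28.3%) and in 21.2% of all genes, and among the listed genes shown Eef1a1 has one there besides Eif3f. Eif3f was higher in growth cones and Eif2s3x lower. An annotated start can differ from the start used in these cells, and the letters say nothing about regulation here.

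Other genes of the translation pathway were grouped by their known roles, and their counts stand beside 23.1% higher and 19.7% lower of all genes tested in WT and 21.6% and 17.0% in those labelled KO. These genes were read in the main test alone. Their calls were not checked with the length offset, other scalings or left-out libraries, nor was their shared sequence counted. Of 20 cytosolic tRNA synthetase genes, which charge tRNAs for eEF1A to deliver, 19 were lower and 0 higher in WT growth cones, and 16 were lower and 0 higher in those labelled KO. Their median log2 fold changes were -1.80 and -1.73, beside 0.07 and 0.11 over all genes. Their sum relative to library totals was 4773 ± 291 CPM in somata of WT mice and 1644 ± 119.5 CPM in their growth cones. Mars, the methionyl-tRNA synthetase, had log2 fold changes of -4.05 ± 0.32 (adjusted p = 1.94e-06) and -3.52 ± 0.43 (adjusted p = 7.48e-05), and Gars, the glycyl enzyme, -2.25 ± 0.19 and -2.29 ± 0.19. Kars was the synthetase that did not pass in WT.

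The poly(A)-binding group moved the other way, with 4 of 5 genes higher and 1 lower in each genotype. Pabpc1, the main cytoplasmic poly(A)-binding protein, which contacts eIF4G, rose by 1.42 ± 0.18 (adjusted p = 7.22e-05) and 1.52 ± 0.23 (adjusted p = 3.12e-04). Paip2, an inhibitor of that protein, rose by 1.39 ± 0.12 and 1.47 ± 0.12, and its relative Paip2b was lower (-0.80 ± 0.21 and -1.07 ± 0.22). Among 8 termination and recycling genes, Denr, which aids recycling and reinitiation, was higher (0.76 ± 0.20 and 1.25 ± 0.20), and Hbs1l, Abce1 and Gspt1 were lower in both genotypes. Hbs1l, a ribosome rescue GTPase, gave -1.64 ± 0.26 and -1.38 ± 0.31, and Abce1, the recycling ATPase, -1.48 ± 0.28 and -1.29 ± 0.30.

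Of the integrated stress response list, downstream of the eIF2 kinases, 5 of 11 tested genes were higher and 2 lower in WT, and 6 of 10 higher and 1 lower in those labelled KO. Atf4, the transcription factor whose translation rises when eIF2 is phosphorylated, rose by 1.98 ± 0.18 (adjusted p = 5.92e-06) and 1.77 ± 0.13 (adjusted p = 1.73e-06), and Ddit3 by 2.75 ± 0.39 and 3.67 ± 0.42. Asns, the asparagine synthetase that ATF4 induces, was lower by signed log2 fold changes of -3.16 ± 0.21 and -2.91 ± 0.33. Other initiation cofactors were lower or did not pass, with 7 of 10 lower in WT and 5 of 10 in those labelled KO. They included Cyfip2 (-1.57 ± 0.24 and -1.47 ± 0.20) and Fmr1 (-0.95 ± 0.21 and -1.90 ± 0.41), which encode partners that repress translation in neurons. Of 12 mTORC1 genes, 1 was higher and 2 lower in WT and 2 were lower in those labelled KO, with Tsc2, a brake on mTORC1, lower in both (-2.01 ± 0.34 and -1.39 ± 0.22). The mTORC1 counts of lower genes lie near the share over all genes. Mitochondrial translation factors had 2 of 10 lower in WT and 1 of 10 in those labelled KO, also near or below that share, with Tufm, their eEF1A counterpart, lower in both (-1.15 ± 0.26 and -1.17 ± 0.24). Of 3 selenocysteine elongation genes 1, Secisbp2l, was lower in each genotype.

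Between genotypes no member passed in either compartment. In somata 0 of 64 tested members passed, where 0.731% of 14911 genes did. At an unadjusted p under 0.05 there were 5 members, or 7.81%, beside 8.57% of all genes. The 3 lowest p-values belonged to Eif4a1 (labelled KO over WT, log2 fold change -0.23 ± 0.08, adjusted p = 0.400), Eif2b2 (-0.36 ± 0.14, adjusted p = 0.459) and Eif1b (-0.35 ± 0.14, adjusted p = 0.488). The Eif4a1 levels listed above overlapped between the soma groups. The median change of the tested members was -0.05, with a median SE of 0.13. Single libraries overlapped between genotypes for every tested member, while 3.17% of all genes did not overlap. Depth moved with the label here, with totals of up to 36059112 in WT and 51205154 in somata labelled KO, and its part was not tested.

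In growth cones 0 of 65 members passed, and 0.00% of 15419 genes did. At an unadjusted p under 0.05 there were 2 members (3.08%) beside 2.13% of all genes. No member separated the genotypes without overlap, beside 0.532% of all genes. The lowest p-values were those of Eif3e (0.41 ± 0.16), Eif4b (0.60 ± 0.27) and Eif3d (-0.48 ± 0.22), each with an adjusted p of 0.999. In WT growth cones Eif4b was 44.6, 111, 94.9, 64.4 and 75 CPM, and with the KO label 125, 80.8, 94.1, 105 and 179 CPM. The groups overlapped, with growth cone 7 lowest in WT and growth cone 11 highest in those labelled KO. The median SE of the members was 0.27, larger than in somata.

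The interaction of genotype and compartment, fitted over all 20 libraries, passed for 0 of 65 members, where 0.0397% of 17645 genes did, and 2 members (3.08%) had an unadjusted p under 0.05 beside 6.98% of all genes. The lowest p-values were those of Eif4b (0.70 ± 0.31, adjusted p = 0.671), Eef1akmt2 (-0.62 ± 0.29, adjusted p = 0.686) and Eif2b2 (0.74 ± 0.37, adjusted p = 0.726). Members called in 1 genotype and not in the other are therefore not shown to differ between genotypes. DESeq2 and limma-voom also called 0 members in each of these 3 comparisons. Of all genes, DESeq2 called 402 of 14911 in somata, 11 of 15419 in growth cones and 273 of 17645 in the interaction. The limma-voom calls over all genes were 138, 0 and 5 in the same order.

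**Figure D5:**
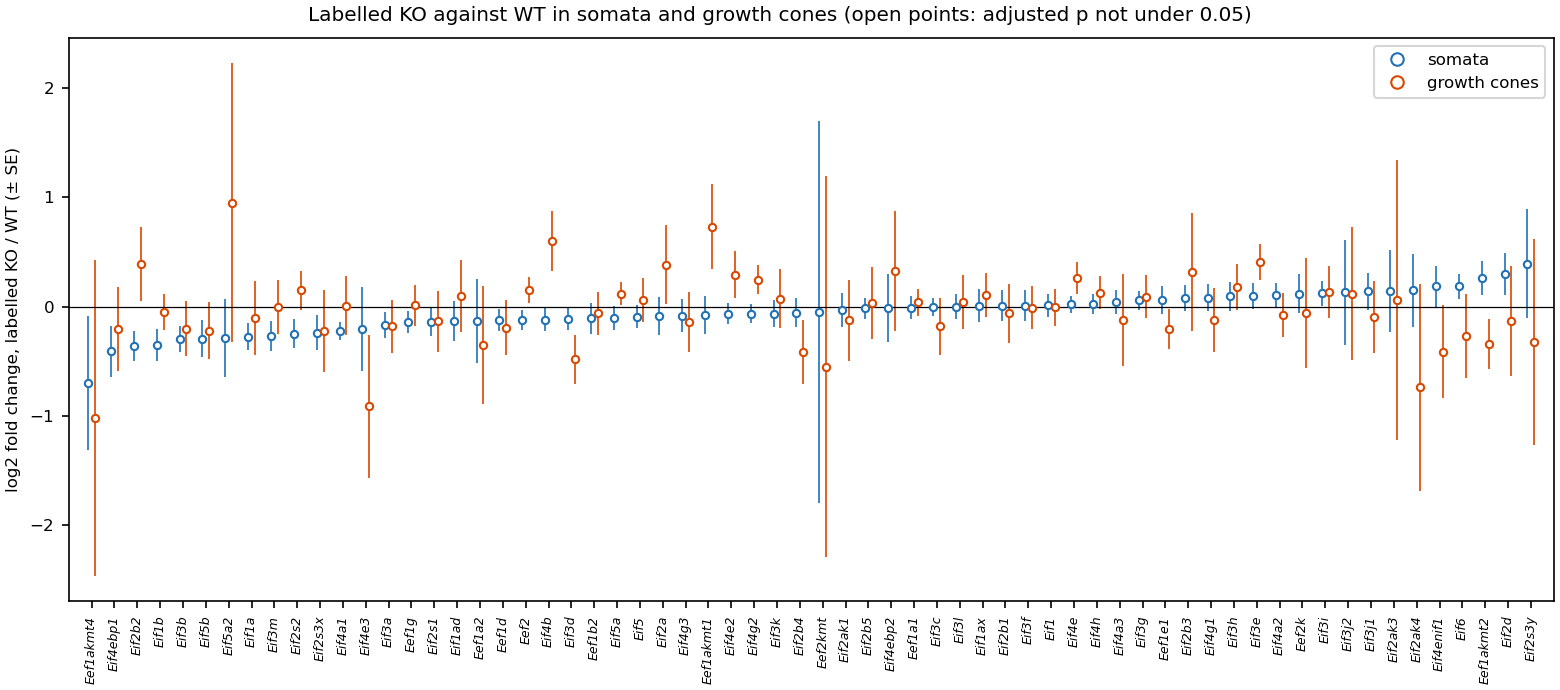
Log2 fold change of labelled KO over WT (vertical axis, ± SE) for each member tested in both compartments, in order of its soma value, in somata (blue) and growth cones (orange-red). All points are open because no member passed, and the error bars are wider in growth cones (median SE 0.27) than in somata (0.13).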

How the data were processed

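RNA was isolated on Qiagen micro columns, made into cDNA with SMART-seq v4 and into libraries with Nextera XT, per the labels' protocols. The submitters' processing notes name Trimmomatic 0.39, STAR 2.7.1a, featureCounts 1.5.0 and the build GRCm39, without roles. The authors deposited raw counts per gene, with no scaling, in 1 table of 20 columns. Gene coordinates in that table are those of GRCm38: 54435 of 55487 genes (98.1%) match GENCODE M21, so coordinates here are GRCm38 as the table gives them. Strand use and the treatment of reads with several matches are not given in the sources used here. Symbols were matched for 55141 gene identifiers, and 0 columns were left unmatched.

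Groups came from the sample titles. In no group were replicate libraries alike within sampling noise (smallest chi-square per degree of freedom 52.7). Each comparison used edgeR 4.0.16 in R 4.3.3 (quasi-likelihood F test, filterByExpr with minimum count 10, TMM, Benjamini-Hochberg, FDR 0.05) on its 2 groups, and the interaction used all 20 libraries. SEs derive from the F statistics. Levels are CPM with TMM factors over all 20 libraries, RPKM divide them by the deposited gene length, and sums over lists use library totals alone. Ratios added 0.5 CPM and were compared by exact permutation tests, adjusted over 52 tests. Libraries have no molecular identifiers. Shared sequence was counted as 50-base stretches of exons found in another gene.

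Members named in a compartment comparison were up to 8 per direction with the lowest p among those past FDR 0.05, with at least 5 CPM and no overlap between groups, plus members of the role and ratio lists. In genotype comparisons the 3 with the lowest p were named, and of each pathway list up to 3 genes per genotype. The members, lists and rules were chosen with earlier results of these data known. Alternatives used DESeq2 1.42.0, limma-voom (limma 3.58.1), other scalings, no filter, 1 fit over all libraries, a replicate block and each library left out.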

Additional observations from a re-analysis of the deposited data

Results flagged for a closer look

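Single libraries stood apart from the other 4 of their group in 7 of 92 sets of values tested (23 named members in 4 groups), where chance alone gives about 1 in 20. All 7 were the lowest of their group. In somata these were Eif3b in WT soma 12 (364 CPM; others 496 to 532), Eif4a1 in WT soma 14 (948 CPM; others 1095 to 1118) and Eif1b in soma 26 labelled KO (61.6 CPM; others 88.7 to 99.8). In growth cones they were Eif3e in WT growth cone 9 (157 CPM; others 189 to 203), Eef1a1 in WT growth cone 10 (2142 CPM; others 2776 to 3080.1), Eif2ak1 in growth cone 11 labelled KO (14 CPM; others 29.1 to 35.4) and Eif3j2 in growth cone 11 labelled KO (2.38 CPM; others 16.6 to 23.5). For Eif3b, Eif4a1, Eif1b, Eef1a1, Eif2ak1 and Eif3j2 the compartment calls were kept when any 1 library was left out.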

How the results depend on the processing

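Left-out libraries gave 35 to 42 called members in WT and 28 to 38 in those labelled KO (38 and 36 with all). The calls over all genes moved too. They went from 5776 of 15809 to 6536 of 15666 genes in WT (6476 of 15128 with all libraries). Under the KO label they went from 5311 of 15907 to 6449 of 16211 (5948 of 15410 with all libraries). Of the 38 WT calls 34 were kept without each library and 24 in every alternative, and of the 36 labelled KO calls 27 and 21. Over DESeq2, limma-voom, other scalings, no filter and all libraries in 1 fit, the counts of members were 36 to 43 in WT and 32 to 43 in those labelled KO. Over all genes these fits called 6278 of 27375 (no filter) to 7475 of 15128 (limma-voom) in WT. Under the KO label they called 5666 of 28166 (no filter) to 7250 of 15410 (limma-voom). With any library left out, the number of ratios that passed was 0, beside 10, since 4 against 5 libraries cannot go below an exact p of 0.0159 and fewer tests reach the smallest p. Scaling by library totals alone put the all-gene median change at 0.22 (log2) in WT and 0.21 in those labelled KO. The member sums with library totals alone were 13718 CPM in WT somata (main 14652) and 13212 CPM in somata labelled KO (main 14054). With the length offset, chosen after seeing the data, these log2 fold changes turned among members that passed with or without it: in WT Eif3e 0.51, Eif4e2 0.00710 and Eif4h 0.0830, and in those labelled KO Eef1akmt1 -1.03, Eif3g -0.52, Eif4e 0.24, Eif4g2 0.0253 and Eif5 0.0715; beyond the removed trend the cause was not tested. Further members that passed in neither fit also changed sign there. Upper-quartile scaling ended the WT calls of Eif2a, Eif3a, Eif3m, Eif4e2 and Eif4h and the labelled KO calls of Eef1d, Eif2ak4, Eif2b4, Eif2b5, Eif2s1, Eif4e and Eif5. Library totals alone ended those of Eif2a, Eif3m, Eif4e2 and Eif4h in WT and Eif2ak4, Eif4e and Eif5 in those labelled KO. WT and labelled KO libraries share experiment numbers, but their deviations correlated weakly (-0.05 to 0.06 in somata and 0.00 to 0.09 in growth cones, 8 of 9 above 0, all under 0.1), so they were not treated as pairs, which does not show that they are unpaired. With the numbers as a replicate block 0 members were called in somata, growth cones and the interaction, and of all genes 34 were called in somata, beside 109 without it. In growth cones and the interaction the block left 0 of all genes called, beside 0 and 7 without it. No paired analysis was possible between compartments because they share no number. Growth cone spread limits what can be seen between genotypes.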
